A study of Rattus norvegicus with 8 samples.

Results

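The genes described here drive the cell cycle from S phase, when DNA is copied, to mitosis, when the copies are separated. Of 34 listed genes, 32 were named alone by at least 1 probe set of the array and measured, out of 10513 genes measured in all. DNA replication was represented by 11 measured genes of 12 listed and mitosis by 21 of 22. Rrm2, a subunit of ribonucleotide reductase, was named only by probe sets that also name Rrm2l1, and Tpx2 had no probe set with its name, so neither was used. A gene was measured when a probe set lay above its array's median on at least 2 arrays.

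RNA came from rat ovarian granulosa cells, the dividing somatic cells that surround the oocyte in the follicle. Immature rats received equine chorionic gonadotropin (eCG), which drives follicle growth. After 24 h they were given anti-eCG antibody, which sends follicles into atresia, or pre-immune serum, which lets them develop. Per the series' design text, 30 to 50% of oocytes from the serum animals developed to term (normal developmental competence, NDC) and 0% from the antibody animals (poor developmental competence, PDC). The labels of the 8 arrays carry a number and no treatment, and give no age, strain or pooling of animals. All 8 arrays were therefore left without a group, and no antibody array was set against a serum array. Each value is given by array, and lists of 8 values run over arrays 2074, 2076, 2194, 2195, 2196, 2197, 2198 and 2199. With no replicates of a known group, no error or test is attached to a difference between arrays, and precision is limited by having only these 8.

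In a growing follicle, granulosa cells proliferate under follicle-stimulating hormone and oestradiol, and leave the cycle when they luteinize or die. Replication genes are switched on by E2F factors as a cell passes into S phase: the MCM proteins form the helicase that opens the DNA, PCNA is the clamp that holds the polymerase, and RRM1 and TYMS supply nucleotides. Mitotic genes peak later, in G2 and M phase: cyclin B with CDK1 starts mitosis, Aurora and Polo kinases and kinesins build the spindle, BUB proteins hold the checkpoint, and CDC20 with UBE2C ends it by marking proteins for destruction. Many mitotic promoters carry a CHR element, often near CCAAT boxes bound by NF-Y, and the DREAM and MuvB complexes act through CHR elements. A bulk array reads the mean of all cells, so fewer dividing cells and less of a transcript per dividing cell cannot be told apart.

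The promoters of the members differed by class. The elements searched were those already known for such genes, so the split is not independent of what was known. RefSeq windows of the GRCr8 assembly, from 250 bases before to 50 after the annotated start, were found for 28 of the 34 listed genes, and Ccna2, Aurkb, Ube2c, Mcm4, Rrm2 and Tpx2 were not among them. The CHR element was searched as TTTGAA or TTCGAA, the E2F core as TTNNCGC in which each N is C or G, and the NF-Y element as CCAAT, each on both strands. The sequences printed here are, of the members given on every array, the 3 mitotic and 2 replication members with the most such elements, to let the 2 kinds of promoter be compared, with the 250 bases before the start in lower case and every element in capitals. Overlapping matches run together in capitals, and an E2F match that crosses the Mcm6 start is shown up to the start. Chosen by number of elements, these promoters need not be typical of their class: Mki67 and Cdk1 hold E2F cores, found in 3 of 18 mitotic windows. Mki67 (chr1:199952594-199952843, minus strand), Cdk1 (chr20:19265043-19265292, plus strand) and Top2a (chr10:84473094-84473343, minus strand) are mitotic, and Mcm6 (chr13:42404353-42404602, minus strand) and Mcm5 (chr19:13488563-13488812, plus strand) are replication members.
Mki67: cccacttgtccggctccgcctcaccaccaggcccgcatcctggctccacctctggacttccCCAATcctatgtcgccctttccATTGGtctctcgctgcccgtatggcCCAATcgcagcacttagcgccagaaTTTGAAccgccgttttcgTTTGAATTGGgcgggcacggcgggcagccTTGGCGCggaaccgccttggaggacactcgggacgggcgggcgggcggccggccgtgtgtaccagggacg
Cdk1: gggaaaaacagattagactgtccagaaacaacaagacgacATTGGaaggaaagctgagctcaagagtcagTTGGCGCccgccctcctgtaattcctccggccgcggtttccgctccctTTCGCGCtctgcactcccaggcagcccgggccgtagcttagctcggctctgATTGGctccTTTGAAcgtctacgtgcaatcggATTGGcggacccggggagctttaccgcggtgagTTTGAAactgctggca
Top2a: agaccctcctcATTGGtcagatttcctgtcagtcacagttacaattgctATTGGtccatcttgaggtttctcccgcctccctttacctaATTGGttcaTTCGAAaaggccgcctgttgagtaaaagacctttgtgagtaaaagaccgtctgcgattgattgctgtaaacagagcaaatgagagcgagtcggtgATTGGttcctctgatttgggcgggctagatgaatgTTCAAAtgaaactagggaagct
Mcm6: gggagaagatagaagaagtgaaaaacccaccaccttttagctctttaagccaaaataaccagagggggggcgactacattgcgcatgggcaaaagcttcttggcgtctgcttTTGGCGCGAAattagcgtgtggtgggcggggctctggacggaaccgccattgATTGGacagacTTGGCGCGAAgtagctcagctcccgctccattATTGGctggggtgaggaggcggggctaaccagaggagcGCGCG
Mcm5: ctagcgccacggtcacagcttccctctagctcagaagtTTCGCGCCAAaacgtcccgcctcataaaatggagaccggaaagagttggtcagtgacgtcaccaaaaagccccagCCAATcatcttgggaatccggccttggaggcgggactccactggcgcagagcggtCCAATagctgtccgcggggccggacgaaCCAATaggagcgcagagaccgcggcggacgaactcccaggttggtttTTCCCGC

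A CHR element lay in the windows of 13 of 18 mitotic members (72.2%) and 3 of 10 replication members (30.0%). It was present in 19.5% of the 27457 genes with a window and in 13.3% of the 8799 of them that were measured here. Both the Cdk1 and the Top2a windows above hold a CHR element in the last 25 bases before the start. Within 60 bases of the start, a distance chosen after the positions had been seen, 12 of 18 mitotic members and 1 of 10 replication members (Rrm1) had one, against 6.47% of all windows and 3.78% of measured ones. The E2F core showed the opposite split, with 8 of 10 replication members (80.0%) and 3 of 18 mitotic members (16.7%), against 10.0% of all windows and 17.7% of measured ones. Mki67, Ccnb2 and Cdk1 were the 3 mitotic members with an E2F core, and Pcna and Ccne1 were the 2 replication members without one. The NF-Y element was common to both classes, in 15 of 18 mitotic and 7 of 10 replication members, against 37.7% of all windows and 38.0% of measured ones. CHR and NF-Y elements occurred together in 12 of 18 mitotic and 2 of 10 replication members, against 7.83% of all and 5.59% of measured windows. The windows of Ccne1, Bub1 and Aurka held none of the 3 elements. Where a gene had more than 1 window, only the first listed was read, so elements at other annotated starts are not counted. A match describes the letters of the window and is not a measured binding site.

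**Figure D1:**
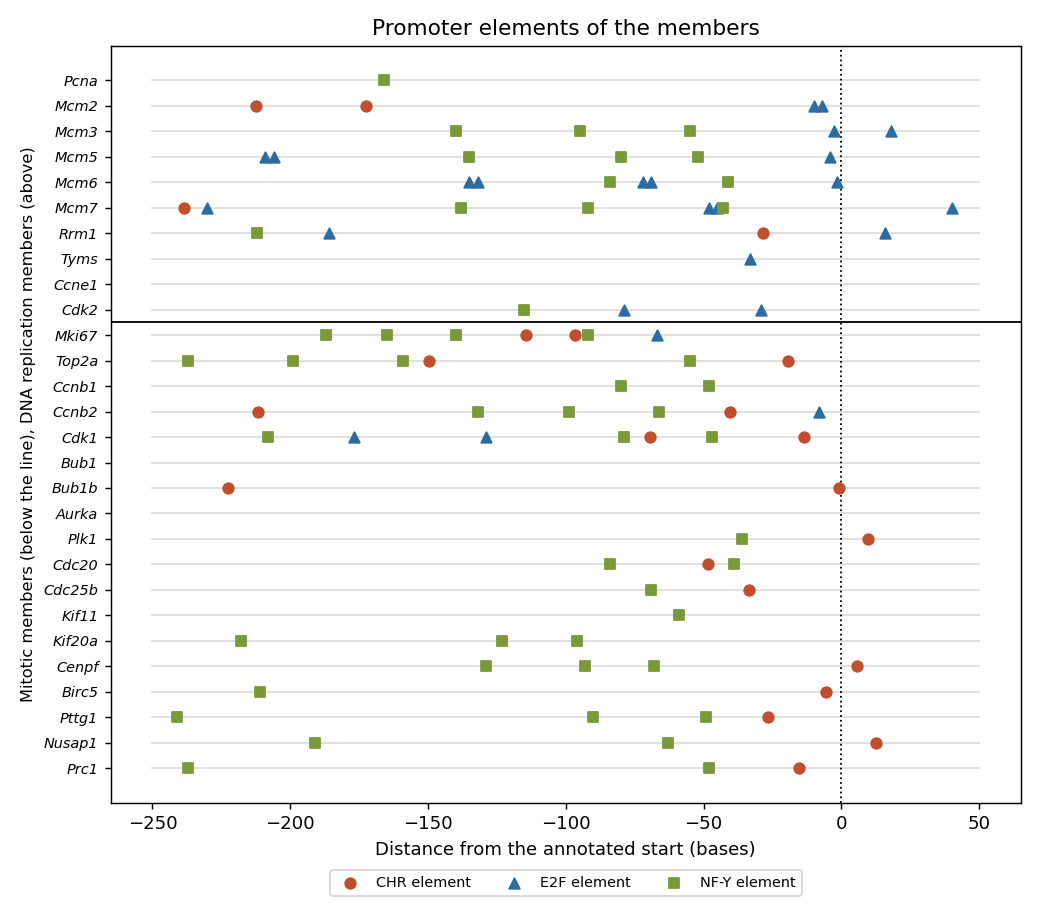
Position of CHR (circles), E2F (triangles) and NF-Y (squares) elements in the RefSeq promoter windows of 28 members, by distance from the annotated start in bases. CHR elements lay in 13 of 18 mitotic members, mostly close to the start, and E2F elements in 8 of 10 replication members.

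The spread of a gene over the arrays was taken as its inner range: its highest and lowest array were set aside, and the highest of the other 6 was divided by the lowest. Of the 32 members, 7 (21.9%) reached 2-fold on this measure, against 29.8% of all measured genes. These were 2 of 11 replication members and 5 of 21 mitotic members (23.8%). The median inner range was 1.45-fold in replication and 1.79-fold in mitosis, beside 1.71-fold over all measured genes. Both replication members past 2-fold, Cdk2 and Ccne1, encode a kinase and its cyclin, while 0 of the 9 helicase, clamp and nucleotide genes reached it. The count of 7 fell to 4 without array 2076, 2194 or 2198 and to 3 without array 2199. Leaving out an array narrows an inner range by construction, and the share of all measured genes was then 18.7% without array 2076, 24.6% without 2194, 23.4% without 2198 and 23.9% without 2199. In mitosis the count fell from 5 to 3 without array 2076, 2194 or 2198 and to 2 without 2199, and in replication from 2 to 1 without array 2074, 2076, 2194, 2195, 2198 or 2199.

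**Figure D2:**
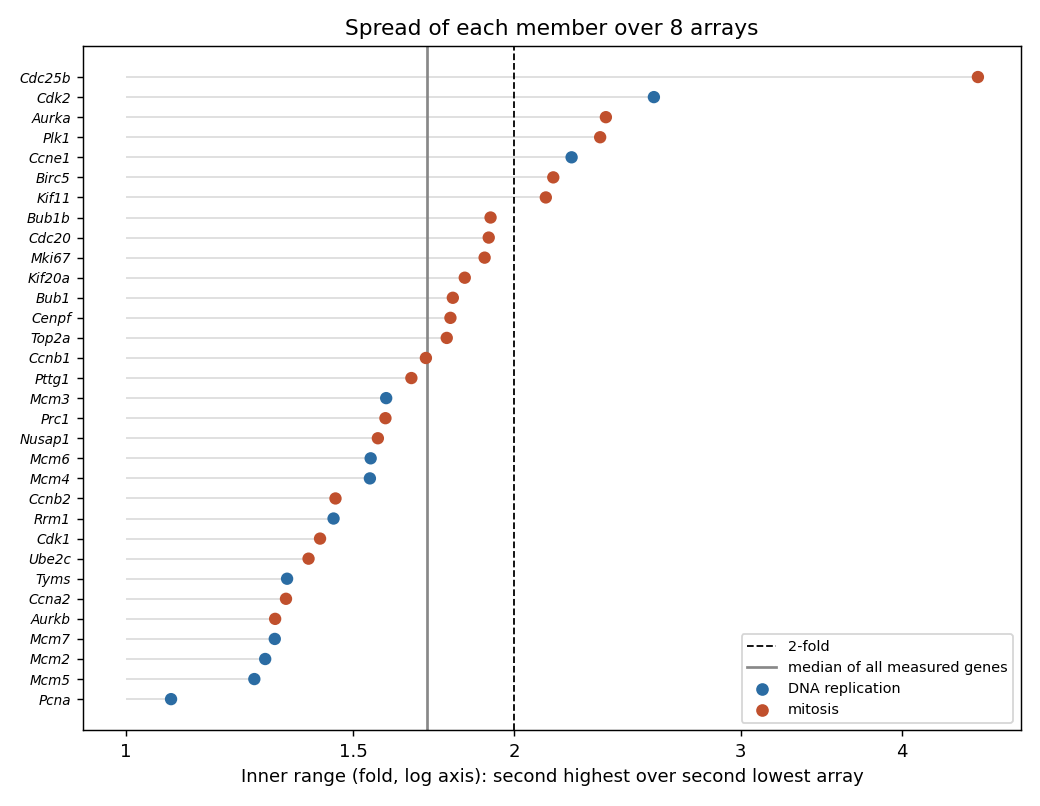
Inner range (fold, log axis) of the 32 measured members over 8 arrays, each point 1 gene, coloured by class. Cdc25b stands at 4.58-fold and Pcna at 1.08-fold, and 7 points lie to the right of the dashed 2-fold line.

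Pcna, the polymerase clamp, and 3 helicase genes, Mcm5, Mcm2 and Mcm7, had the smallest inner ranges of the 32 members. Pcna gave signals of 13492, 14419, 15244, 14323, 14324, 14621, 14284 and 12276. Its inner range was 1.08-fold, and its full range, the highest over the lowest array, was 1.24-fold. The lowest Pcna signal was on array 2199, and the other 7 arrays lay between 13492 and 15244. Mcm5 gave 1994, 1989.7, 2111, 2085, 1763, 1804, 1658 and 1509, with 1.26-fold, and was also lowest on array 2199. Mcm2 gave 1855, 1529.7, 1771, 1716, 1295, 1542, 2286 and 1447, with 1.28-fold, highest on array 2198 and lowest on array 2196. These 3 genes were among those that kept under 2-fold even in their full range. On that measure 23 of the 32 members and 71.4% of all measured genes reached 2-fold. Mcm7 had an inner range of 1.30-fold and ran from 4431 on array 2195 to 6319 on array 2198.

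The remaining helicase genes did not share an order over arrays. Mcm3 gave 1554, 1257, 823, 1048, 1164, 1309.9, 726 and 854, an inner range of 1.59-fold, with the highest signals on arrays 2074, 2197 and 2076. Mcm6 gave 1786, 1016, 1156, 540.1, 1030.2, 841, 1261 and 815, an inner range of 1.55-fold but a full range of 3.31-fold, set by array 2074 at the top and array 2195 at the bottom. On array 2195, where Mcm6 and Mcm7 were at their lowest, Mcm4 was at its highest. Mcm4 ran from 1523 on array 2076 to 3377 on array 2195, and arrays 2074 and 2076 both lay below the other 6. The 6 subunits form 1 ring. Mcm3 and Mcm6 were both highest on array 2074 and Mcm2 and Mcm7 on array 2198, and only Mcm6 and Mcm7 shared their lowest array.

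The nucleotide supply genes Rrm1 and Tyms stood apart on array 2076. Rrm1, the large subunit of ribonucleotide reductase, ran from 1375 on array 2076 to 3193 on array 2197, with 1.45-fold as its inner range and 2.32-fold as its full range. Tyms, which makes thymidylate, ran from 565 on array 2076 to 1139 on array 2194, with 1.33-fold and 2.02-fold. In both genes array 2074 was the next lowest, at 2187 and 826, so both arrays lay below the other 6. Low signals on array 2076 were not shared by all nucleotide supply genes. The brighter probe set that names both Rrm2 and Rrm2l1 gave 7178 there, close to its median of 7377. Tk1 and Dut, nucleotide supply genes outside the listed members, each lay 0.28 log2 above their own median on array 2076. Arrays 2074 and 2076 both lay beyond the other 6 in 4 of 11 replication members, with Mcm4, Rrm1 and Tyms below and Cdk2 above, and in 5 of 21 mitotic members. The share over all measured genes was 28.1% (14.5% below and 13.6% above), and the 9 of 32 members are close to it.

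The kinase and cyclin that take a cell into S phase varied more. Cdk2 gave 1802, 2088, 1099.6, 783, 881, 484, 752 and 702, an inner range of 2.57-fold, with arrays 2074 and 2076 above the other 6. Without array 2074 it was 1.56-fold and without array 2076 1.57-fold. A dimmer Cdk2 probe set gave 685, 282, 375, 1281, 409.8, 469, 851 and 251, highest on array 2195, and lay under the floor for low signals on arrays 2076 and 2199. The floor was the 40th percentile of each array, between 274 and 473, and weaker values were raised to it before ranges were taken. The pair of Cdk2 probe sets therefore disagreed on which arrays were high. Ccne1, cyclin E1, gave 749, 727, 304, 112, 569, 631, 1122 and 1049, at the floor on arrays 2194 and 2195, so its inner range was at least 2.22-fold. Arrays 2198 and 2199 were the highest for Ccne1, and Cdk2 and its cyclin did not share an order.

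Among mitotic members, Cdc25b varied most. CDC25B is the phosphatase that activates CDK1 at the entry to mitosis. Its signals were 2466, 1816, 606, 831, 829.7, 361, 876 and 396, which spanned 4.58-fold as inner range and 6.83-fold in full. Arrays 2074 and 2076 lay above the other 6, and arrays 2197 and 2199 were the lowest. The inner range was 2.20-fold without array 2074, 2.20-fold without 2076, 2.99-fold without 2197 and 2.99-fold without 2199, so it passed 2-fold each time.

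The spindle kinases did not follow one another. Aurka, the Aurora kinase of the spindle poles, gave 1379.9, 879, 1175, 2574, 1873, 1110.1, 2072 and 652, with 2.36-fold, high on arrays 2195, 2198 and 2196 and lowest on array 2199. Plk1, the Polo kinase of mitotic entry and exit, gave 2379, 3167, 6303, 2169, 2986, 3718, 5549 and 2705, with 2.33-fold, high on arrays 2194 and 2198 and lowest on array 2195. Array 2195 thus held the highest Aurka and the lowest Plk1 signal. Aurkb, the Aurora kinase of the chromosome passenger complex, gave 1166, 1809.9, 1408, 1707, 1308, 1399, 1568 and 1544 and was the steadiest mitotic member at 1.31-fold. Birc5 encodes survivin, a member of the same complex that also restrains cell death. It gave 551, 675, 513, 861, 461, 163, 387 and 214, at the floor on arrays 2197 and 2199, and at least 2.15-fold. Aurkb lay -0.08 and 0.07 log2 from its own median on those arrays, so these 2 transcripts of the complex did not run in parallel there.

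Cyclins and the mitotic kinase Cdk1 varied less. Cdk1 gave 2239, 2395, 2986, 3167, 2892, 1795, 3491 and 2299, an inner range of 1.41-fold, lowest on array 2197. Ccnb1, cyclin B1, gave 3982, 4324, 6092, 7389.7, 6248, 6317, 7951 and 4779, with 1.71-fold, and arrays 2074 and 2076 lay below the other 6. A dimmer Ccnb1 probe set gave 1331, 1628, 1144, 953, 2089, 954, 1174 and 961, the same inner range to 3 digits but highest on array 2196 and with arrays 2074 and 2076 not low, so the order of Ccnb1 depended on the probe set. Ccnb2, cyclin B2, had a signal of 1455 on array 2199, while its signals on the other 7 ran from 2458 to 3578. Ccna2, cyclin A2 of S and G2 phase, gave 578, 585, 709, 769, 632, 993, 643 and 518, with 1.33-fold, highest on array 2197 and lowest on array 2199.

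Common proliferation markers were read next. Mki67, which encodes Ki-67, the protein that coats mitotic chromosomes, gave 1843, 1964, 2995, 3832, 3603, 1898, 2783 and 2395, an inner range of 1.90-fold. Arrays 2195 and 2196 were high, and arrays 2074, 2197 and 2076 lay within 1843 to 1964 at the bottom. Top2a, the topoisomerase that untangles chromosomes, gave 4633, 5180.2, 4637, 1121, 4407, 2619, 3712 and 2615, with 1.77-fold as its inner and 4.62-fold as its full range. The full range rested on array 2195, at 1121 the lowest Top2a value, where Mki67 was at its highest. A dimmer Top2a probe set gave 1235, 758, 454, 1214, 543, 764, 392 and 341, and there array 2195 was the second highest, so the low value was not shared by both probe sets.

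The other mitotic members had inner ranges from 1.39-fold to 2.12-fold. Kif11, the kinesin that pushes spindle poles apart, ran from 363 on array 2199 to 1266 on array 2198. Bub1b, the checkpoint kinase BUBR1, ran from 426 on array 2198 to 1395 on array 2199 and so went the other way on array 2199. Its partner Bub1 ran from 764 on array 2199 to 1961 on array 2196. Cdc20, which activates the anaphase-promoting complex, ran from 851 on array 2199 to 2346 on array 2076, and Ube2c, the ubiquitin-conjugating enzyme of that complex, from 1839 on array 2199 to 4309.8 on array 2198. Pttg1, the securin that the complex destroys, ran from 1917 on array 2199 to 4448 on array 2198. Cdc20, Ube2c and Pttg1 were thus all lowest on array 2199, as were 12.4% of all measured genes, and Ube2c and Pttg1 were highest on array 2198. Plk1, which also acts in mitotic exit, was lowest on array 2195.

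Kif20a and Prc1 act together in the midzone of the dividing cell. Kif20a ran from 2832 on array 2199 to 8799 on array 2196 and Prc1 from 1553 on array 2199 to 4922 on array 2074. Nusap1, a spindle microtubule protein, ran from 3043 on array 2199 to 5093 on array 2194, and Cenpf, a kinetochore protein, from 1738 on array 2076 to 4301 on array 2194. All of these except Cenpf had their lowest signal on array 2199. A dimmer Nusap1 probe set had an inner range of 2.97-fold and was lowest on array 2199 too. Of the 5 Cdc20 probe sets, 3 lay above the floor on every array, with inner ranges of 1.91, 1.72 and 2.61-fold, and of these the first 2 were lowest on array 2199 and the last on array 2197. Arrays 2074 and 2076 lay below the others for Cenpf and Ccnb1 and above them for Prc1, Cdc20 and Cdc25b.

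**Figure D3:**
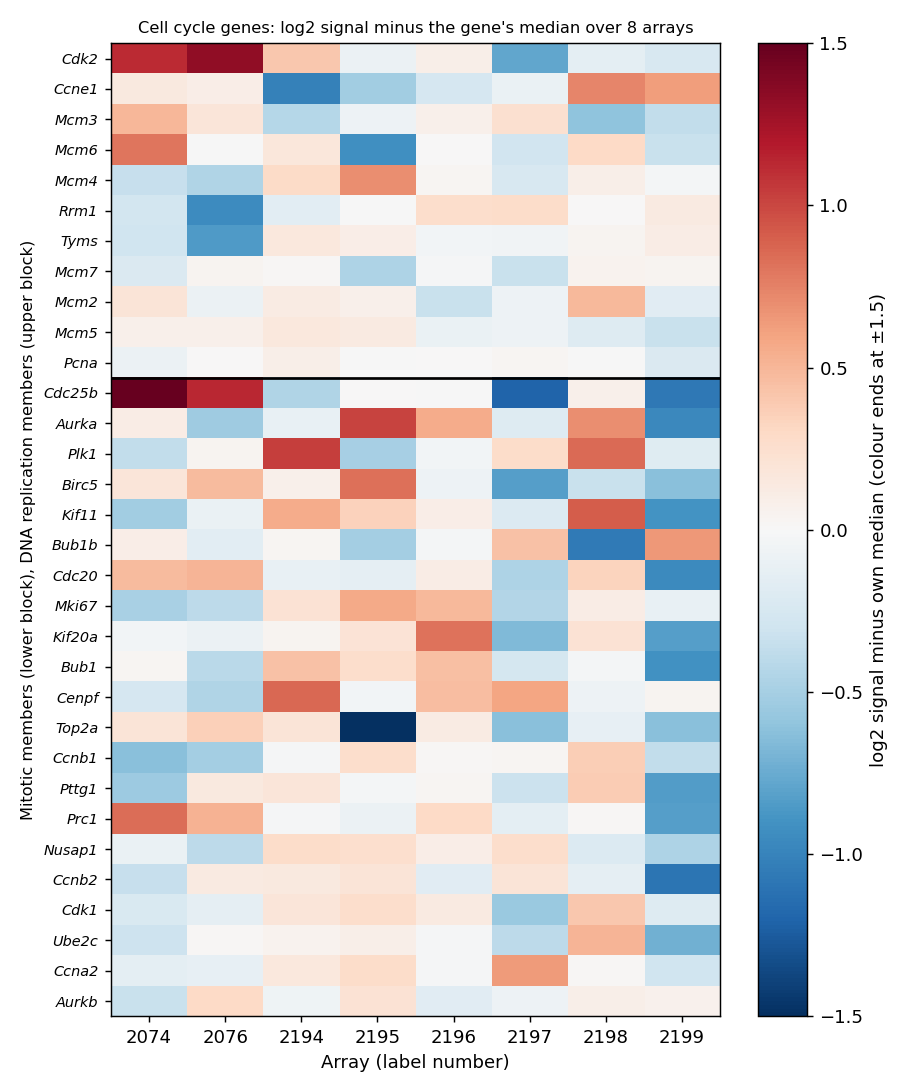
log2 signal minus the gene's own median over 8 arrays (columns) for 11 replication members (upper block) and 21 mitotic members (lower block), each ordered by inner range. Blue marks low values, and the column of array 2199 is mostly blue in the mitotic block. Cdc25b on array 2074 and Top2a on array 2195 lie beyond the ends of the colour scale.

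Mitotic members were low together on array 2199, and replication members were not to the same degree. Of the 21 mitotic members, 11 had their lowest value on array 2199, against 12.4% of all measured genes. They were Ccnb2, Aurka, Cdc20, Bub1, Kif11, Pttg1, Prc1, Kif20a, Ube2c, Nusap1 and Ccna2. Of the 11 replication members, 2 did, Pcna and Mcm5. The brighter probe set that names both Rrm2 and Rrm2l1, left out of the counts, was lowest there too, at 3619 against 5244 to 8818 on the other 7 arrays. On the same array 18 of 21 mitotic members and 7 of 11 replication members lay below their own median, against 52.2% of all measured genes. Of the 11, Ccnb2 was 2.35-fold lower there than the median of the other 7 arrays, Aurka 2.12-fold, Cdc20 2.10-fold, Kif11 1.99-fold and Bub1 1.92-fold. Cenpf, Aurkb and Bub1b were the 3 mitotic members above their median on that array. Array 2199 was singled out after its values had been seen, no difference from other arrays was tested, and its treatment is not known.

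The mean over a class of each member's log2 distance from its own median, the class score, gave the same picture. The mitotic score was -0.04, 0.02, 0.17, 0.08, 0.15, -0.19, 0.14 and -0.53. The replication score was 0.15, -0.05, -0.02, -0.10, -0.03, -0.13, 0.07 and -0.07. The mitotic score had a log2 inner range of 0.34 and a full range of 0.71, and the replication score 0.17 and 0.27. The mitotic minus the replication score was -0.19, 0.07, 0.19, 0.17, 0.18, -0.06, 0.07 and -0.47, with a log2 inner range of 0.36. It was lowest on array 2199, next lowest on array 2074, and between 0.17 and 0.19 on arrays 2194, 2195 and 2196. Array 2074 had the highest replication score of all arrays and a mitotic score near 0. Cdk2 and Mcm6, 1.12 and 0.80 log2 above their medians there, lay furthest out, and 5 of the 11 replication members lay below theirs. The mean of other replication genes on that array was -0.06.

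**Figure D4:**
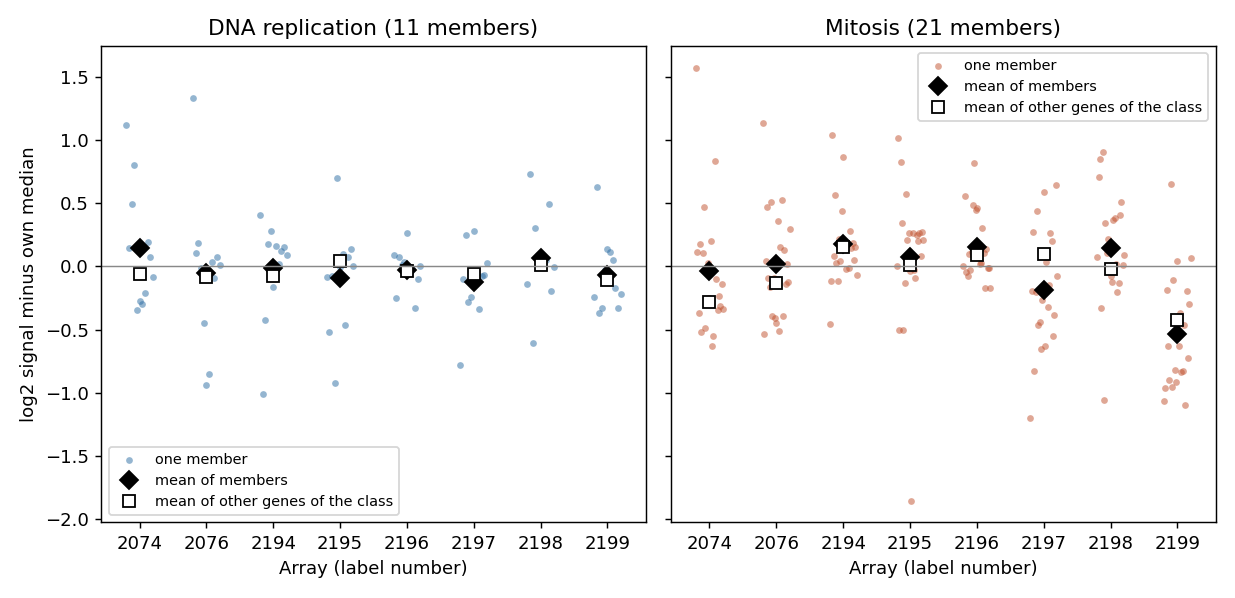
log2 signal minus own median by array for replication members (left, 11 genes) and mitotic members (right, 21 genes), with the mean of the members as black diamonds and the mean of other genes of the same class as open squares. The mitotic means are -0.53 and -0.43 on array 2199, and the replication means are -0.07 and -0.11.

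No other array held the lowest value of more than 3 mitotic members. They numbered 3 on array 2074 (all measured genes 15.6%), 1 on 2076 (16.0%), 0 on 2194 (7.70%), 2 on 2195 (9.87%), 0 on 2196 (10.7%), 3 on 2197 (19.1%) and 1 on 2198 (8.51%). The members lay on both sides of their medians more evenly there. Above their own median lay 15 of 21 on array 2194 (all measured genes 52.4%), 14 on array 2195 (61.3%), 14 on array 2198 (55.9%) and 13 on array 2196 (46.6%). Below it lay 14 on array 2197 (all measured genes 55.5%), 13 on array 2074 (53.8%) and 11 on array 2076 (54.7%). Replication members were above it in 8 of 11 on array 2194 and below it in 8 of 11 on array 2197. As a description over 8 arrays, which share 1 scaling, the median Pearson correlation over the 210 pairs of mitotic members was 0.29, over the 55 pairs of replication members -0.01 and over the 231 pairs between the classes 0.07. Over all pairs of measured genes it was 0.03.

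Other cell cycle genes outside the 34 were read in the same way. Of 38 other mitotic genes 31 were measured, and 11 of these had their lowest value on array 2199 and 27 lay below their own median there, against 12.4% and 52.2% of all measured genes. The 11, listed after their values had been seen, were Ccnf, Ect2, Hmmr, Spc25, Cdca3, Cks1b, Cdkn3, Tacc3, Kif22, Cks2 and Racgap1. Their class score was -0.28, -0.13, 0.15, 0.01, 0.09, 0.09, -0.02 and -0.43, also lowest on array 2199, with array 2074 next. Of 34 other replication genes 29 were measured, 4 of them lowest on array 2199 (13.8%) and 17 below their median there (58.6%), close to those shares, and their score was -0.06, -0.08, -0.08, 0.04, -0.04, -0.06, 0.01 and -0.11. An inner range of 2-fold or more was reached by 7 of the 31 (22.6%) and 6 of the 29 (20.7%), both below the 29.8% of all measured genes. The 3 widest of each list are named by a rule and not because they stood out. The mitotic ones were Pbk, a mitotic kinase, at 3.40-fold, Cenpe, a kinetochore motor at the floor on 3 arrays, at no less than 3.02-fold, and Lmnb1, lamin B1 of the nuclear envelope, at 2.72-fold. The replication ones were Cdc45, a part of the active helicase, at 3.29-fold, Prim2, a primase subunit, at 3.23-fold, and Chaf1b, a histone chaperone subunit at the floor on 3 arrays, at no less than 2.45-fold. Cdc45, Prim2 and Pbk each had arrays 2074 and 2076 below the other 6, a split that itself widens an inner range. In the full lists both arrays lay below the other 6 in 3 of the 31 and 3 of the 29, against 14.5% of all measured genes.

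**Figure D5:**
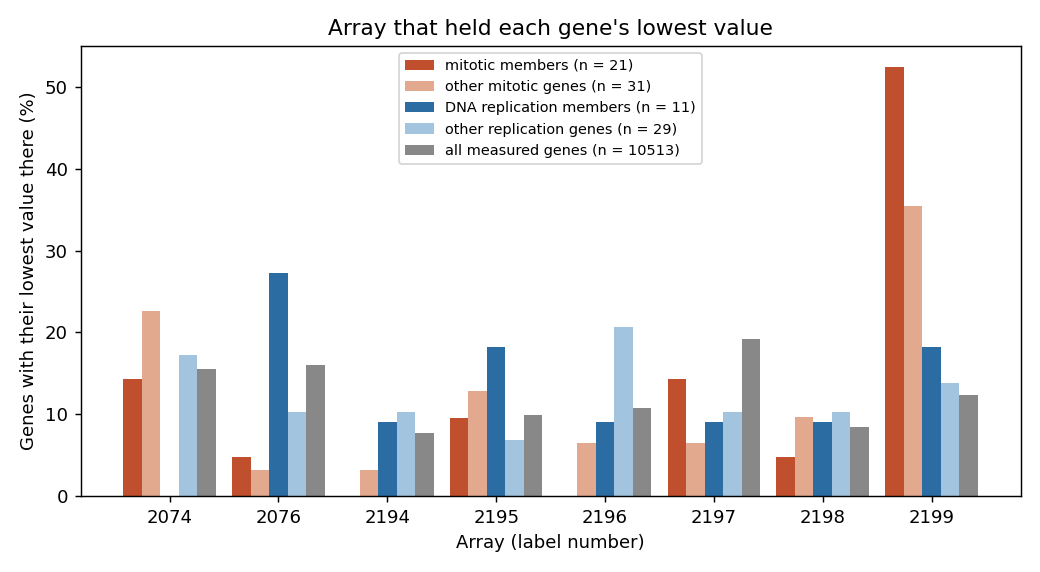
Percent of genes whose lowest value fell on each array, for mitotic and replication members, other genes of both classes and all 10513 measured genes. On array 2199 the bars stand at 52.4% for mitotic members, 35.5% for other mitotic genes, 18.2% for replication members and 12.4% for all genes.

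The mitotic members on array 2199 were also read by CHR element. Of 13 measured mitotic members with the element, 11 lay below their median there, and of 5 without it, 5 did, against 635 of 1169 and 3983 of 7630 measured genes with a window. The median log2 distance on that array was -0.63 in the 13 mitotic members and -0.90 in the 5. Over all measured genes with a window it was -0.023 with the element and -0.013 without it. No difference between these sets was tested.

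Array quality and cell markers were read beside these values. The trimmed mean of the deposited signals lay between 1500.5 and 1500.6 on all 8 arrays, and the median correlation of an array with the other 7 lay between 0.906 and 0.942. Array 2195 had the lowest such correlation and the highest floor, 473. Its median deposited signal was also the highest, 650 against 397 to 526 on the other 7. The ratio of 3' to 5' control signals for Gapdh, a measure of RNA integrity, was 7.99 on array 2199, the second highest of a range from 5.27 to 8.81. The highest was on array 2197, so the 2 highest Gapdh ratios fell on the arrays with the 2 lowest scores of the mitotic members. This was not so for the other mitotic genes. Their score was 0.09 on array 2197, and second lowest, at -0.28, on array 2074, where the Gapdh ratio was 6.66. The beta-actin ratio was 4.67 on array 2199, the second lowest of 4.67 to 12.1, and it was 11.0 and 12.1 on arrays 2074 and 2076. Of 10 granulosa markers 9 were listed, all measured, and Fshr was not listed. Their summed signal ranged from 271285 to 379940.0 and was 309088 on array 2199. Cyp11a1, at 118276 to 228818, made up much of that sum, and single markers lay at the ends of their range on array 2199. Inhba, an activin subunit, and Nr5a2, a steroidogenic nuclear receptor, were highest there at 72385 and 48803, the luteinizing hormone receptor gene Lhcgr was second highest at 3719, and Amh was lowest at 243. Of the other granulosa markers, Inha, Hsd17b1 and Cyp11a1 were second lowest there, at 30172.5, 2059 and 132364, and Cyp19a1 and Foxl2 lay in between. Of the stroma genes, the collagen gene Col1a1 was highest there at 1005, and Col3a1, Dcn and Pdgfra were lowest at 331, 39.2 and 46.3. The Amh, Dcn and Pdgfra values lie under that array's floor of 314, where signals have no reliable order. Summed signals of theca and stroma (1730.1 to 4375, 5 of 6 listed genes measured), endothelium (421 to 1299.8, 1 of 3), leukocytes (1125 to 2999, 2 of 4), erythroid cells (3814 to 49119, 2 of 2) and the oocyte (435 to 2111, 1 of 3) were neither highest nor lowest on array 2199. Ptprc, Cd3e, Kdr, Bmp15 and Zp3 were above the array median on 0 arrays. The part of RNA integrity, of granulosa cell state or of other cells in the low mitotic signals of array 2199 was not tested.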

How the data were processed

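The deposited table gives signal intensity on a linear scale for 31099 probe sets on 8 arrays, made by the authors with MAS5 per the submitters' processing notes, with 1 array per sample. No version or detection calls are given in the sources used here, and MAS5 values are noisy at low signal. Signals were put on the log2 scale after 57 control probe sets were set aside. Arrays were brought to 1 common median, taken over probe sets that exceeded the 50th percentile on all 8, and values under the 40th percentile were raised to it, the floor. Printed signals are scaled and not floored. Probe sets with 1 gene symbol (20826, for 14217 genes) were used, 436 with several were left out, and 9780 were not listed in the annotation, which can be old. Of the symbols, 20764 matched RefSeq (GRCr8) by gene ID, and 0 changed. The brightest measured probe set stood for a gene, and signals of different genes were not ranked. Promoter windows came from RefSeq, and the first listed window of each gene was used, of 33469 windows for 27457 genes.

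Members with their value on every array were, per class, the 4 with the widest and the 2 with the narrowest inner range, and Mki67, Top2a, Cdk1, Ccnb1, Pcna and Mcm2. Of other cell cycle genes, 3 per class were named. The members and lists were chosen with earlier results of these data known. Python 3.11.15, pandas 2.3.3 and NumPy 2.4.6 were used, and the steps were tested on simulated data. Alternatives were other scalings, floors, filters, probe set rules, classes and sets of arrays.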

Additional observations from a re-analysis of the deposited data

Results flagged for a closer look

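In 4 of the 32 members 1 array lay far from the other 7 by Dixon's ratio, the gap to the nearest array over the whole range, above the 95% critical value for 8 arrays. Over all measured genes it was so in 631 of 10513 (6.0%), and chance flags about 1 in 20 sets. The ratio was 0.582 for Ccnb2, low on array 2199, and 0.553 for Top2a, low on array 2195. It was 0.551 for Rrm1 and 0.543 for Tyms, both low on array 2076. The mitotic score, at 0.489 and lowest on array 2199, did not pass, nor did the replication score at 0.280 or their difference at 0.427.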

How the results depend on the processing

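Counts of members with a spread of at least 2-fold moved with the settings, while the mitotic score stayed lowest on array 2199. With other arrays left out this is largely so by construction, because a lowest value on array 2199 mostly stays lowest. Those settings are therefore a weak check of it. The count of 7 members (2 replication, 5 mitotic) was 3 (1 and 2) with genes required on all 8 arrays, 23 (7 and 16) with the full range, 3 (1 and 2) over arrays 2194 to 2199 and 1 (0 and 1) without arrays 2074, 2076 and 2195, where 19.3, 71.4, 12.0 and 5.65% of all genes reached 2-fold. Without Ccne1 and Cdk2, the only replication members at 2-fold, the replication count was 0 by construction. With 1 array left out in turn the counts ran from 3 to 7 for all, 1 to 2 for replication and 2 to 5 for mitosis. With the full range the score ranges were 0.27 for replication, 0.71 for mitosis and 0.66 for their difference, and without arrays 2074, 2076 and 2195 the replication score range was 0.061. With 1 array left out the score inner ranges ran from 0.088 to 0.17, 0.19 to 0.33 and 0.24 to 0.36. The mitotic score and the mitotic minus replication score were lowest on array 2199 under every alternative run on them that holds it, with 10 to 14 mitotic members lowest there while 9.20 to 22.6% of all genes were. For other mitotic genes the count was 10 to 14 except 18 without arrays 2074, 2076 and 2195. With 1 array left out, 11 to 13 of each list were lowest there, with a mitotic score of -0.56 to -0.50, a replication score of -0.096 to -0.036 and a difference of -0.51 to -0.43. The replication score on array 2199 was -0.17 with the median of members. Bub1b reached 3.01-fold with quantile normalization, and Ccne1 3.45-fold without a floor. The causes were not tested. Settings on array 2199 were chosen after seeing the data. No paired analysis was possible because the labels give no groups. Signals near the floor limit Ccne1 and Birc5. Cdc25b was also dim, at 361 on array 2197 and 396 on array 2199, where the floors were 274 and 314, and Kif11 was 363 on array 2199. With genes required on all 8 arrays, Ccne1, Birc5, Cdc25b, Kif11, Bub1b and Mcm6 were left out.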
